A study of Danio rerio with 5 samples.

Results

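Immediate-early AP-1 and Egr genes of the zebrafish, 9 genes chosen by symbol, were followed through sorted cells of larvae: the Fos genes fosab, fosb and fosl1a, the Jun genes jun, junba, junbb and jund, the zinc-finger gene egr1 and the ATF gene atf3. All 9 were present among the 36351 genes of the single-cell tables and among the 17540 genes of the bulk table. The series holds 5 samples of cells that were dissociated from larvae 5 days after fertilization and sorted by fluorescence. In 3 of them (um148 libraries 1 to 3), citrine-positive cells went into bulk libraries with oligo-dT priming. Their strain label gives Tg(pdgfrb:citrine)s1010 with pdgfb um148. In the other 2 (single-cell libraries 1 and 2), EGFP-positive cells of Tg(pdgfrb:egfp)ncv22 were made into 10x 3′ v3 libraries, with no mutant allele named in their labels. The groups share the stage, the dissociation and the sort, and they differ in reporter line, genotype and assay, so levels were not compared between them. The strain label writes um148 as an allele of pdgfb, and which gene it disrupts was not settled here. The labels and deposited data do not say how many larvae were pooled or whether replicates came from separate clutches. Which spread between animals the p-values cover is therefore not known. The p-values between types measure how differences of types vary between the 2 single-cell libraries, with any shift shared by a library removed. That error is pooled over types taken from the same suspensions. The authors' p-values also rest on wild-type libraries outside these samples.

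AP-1 is a transcription factor made of paired basic leucine zipper proteins. Fos proteins bind DNA as partners of Jun proteins, whereas Jun proteins can also pair with each other, and Atf3 pairs with Jun proteins as well as with itself. Egr1 is a zinc-finger factor that is switched on by the same growth-factor signalling through MAP kinases and serum response factor. In mammals the transcripts of most of these genes rise within minutes of a stimulus and decay quickly, and in mouse tissue they are known to rise while tissue is being dissociated. No undissociated sample was analysed here, so how much of any level below arose during dissociation was not tested.

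The single-cell libraries held 12121 and 10182 barcodes with 70247500 and 77896721 unique molecular identifiers (UMIs, each standing for 1 captured transcript). After removal of barcodes with few genes, with over 10% mitochondrial UMIs or with the highest doublet scores, 5653 and 7358 cells were kept, with median depths of 5689 and 6062 UMIs. The mitochondrial limit removed 3976 barcodes from library 1 and 407 from library 2. The libraries shared 30 barcodes, 11 of them kept. A cell was assigned to a type when at least 3 of that type's fixed markers were detected and at least 2 more than of any other type. None of the 9 genes was a marker. This left 10 types with at least 30 cells in each library, and a gate of this kind is a range of cells around a marker count, not a verified type. Most kept cells met no gate, 3162 of 5653 and 3973 of 7358. The comparisons of types below therefore cover a minority of the sorted cells. The smallest was the leukocyte gate, with 49 and 58 cells, and the largest the epidermis gate, with 549 and 698 cells. In the pericyte gate 15 of 88 and 23 of 139 cells stood at exactly 3 markers. More stood at the smallest allowed margin, exactly 2 markers above another type: 65 and 93 cells. So did 292 of 419 and 423 of 594 fibroblast-gated cells, but only 94 of 325 and 111 of 435 smooth-muscle-gated cells. The pericyte and fibroblast gates thus held mostly cells at that limit. Transcripts of pdgfrb, whose regulatory sequence drives the reporter, stood at 283 and 291 CPM (counts per 1000000 UMIs) in pericyte-gated cells, at 97.7 and 100.1 CPM in smooth-muscle-gated cells, at 16.7 and 12.2 CPM in epidermis-gated cells, at 15.0 and 13.9 CPM in glia/progenitor-gated cells, at 8.71 and 11.1 CPM in skeletal-muscle-gated cells, at 5.91 and 1.54 CPM in neuron-gated cells and at 4.51 and 6.50 CPM in leukocyte-gated cells. The last 5 of these gates therefore held cells that passed the reporter sort with little pdgfrb transcript.

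Fibroblast-, glia/progenitor-, pericyte- and smooth-muscle-gated cells held the most transcript of the 9 genes, and leukocyte- and neuron-gated cells the least. Summed over the genes, the level was 7349 and 7261 CPM in fibroblast-gated cells (libraries 1 and 2, mean 7305 ± 62.2, SD, n = 2). It was 7299 and 6699 CPM in glia/progenitor-gated cells, and 7442 and 5563 CPM in pericyte-gated cells. Smooth-muscle-gated cells followed at 6115 and 5476 CPM. Neighbours among these 4 types overlapped, so the order of neighbours is not resolved. Fibroblast and glia/progenitor did stand above smooth muscle without overlap. A step down led to epidermis (4054 and 3986 CPM), fin fold mesenchyme (3772 and 3680 CPM) and chondrocyte (3501 and 3277 CPM). Skeletal-muscle-gated cells stood at 2788 and 2751 CPM, neuron-gated cells at 2387 and 1938 CPM and leukocyte-gated cells at 1345 and 1183 CPM. Of the 9 neighbouring pairs in this order, the 3 among the first 4 types overlapped, and the highest mean was 5.78 times the lowest. Ungated cells, the larger part of each library, stood at 5747 and 5272 CPM. Erythroid-gated cells, too few to test at 13 and 27 cells, had 348 and 195 CPM. The part of RNA free in the suspension in the level of any type was not tested.

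In edgeR's quasi-likelihood test on UMIs summed per library and type, each type was set against the mean of the other 9, with library as a block and Benjamini-Hochberg adjustment over 14871 genes. Of 90 pairs of a gene and a type, 38 were higher at adjusted p under 0.05, against 20.7% of all genes and types, and 26 were lower, against 10.7%. All 9 genes were higher in fibroblast-gated cells (background 19.4%) and 0 lower (5.32%), with a median log2 difference of 1.09, beside 0.12 over all genes. In smooth-muscle-gated cells 7 were higher (background 20.8%) and 0 lower (4.55%). In pericyte-gated cells 6 were higher (background 10.8%) and 0 lower (3.4%). In leukocyte-gated cells all 9 were lower (background 20.7%) and 0 higher (17%), with a median log2 difference of -2.09 beside -0.85 over all genes. In neuron-gated cells 8 were lower (background 23.6%) and 0 higher (33.9%), with a median of -1.70 beside 0.10 over all genes, and jund was the exception (log2 -0.31 ± 0.14, adjusted p = 0.077). Epidermis had 4 higher (background 28.8%) and 1 lower (8.45%), and fin fold mesenchyme 3 higher (16.8%) and 4 lower (8.58%). The test rescaled each sum by edgeR's TMM factors, whereas CPM levels are per total UMIs, so level and test can order types differently. Mean fosab was 1049 CPM in skeletal muscle and 1923 CPM in pericyte, yet the test values were log2 0.94 and 0.92. For 3 types the count turned on scaling. Chondrocyte had 4 higher (19.5%) and 2 lower (7.23%) but 2 (10.4%) and 4 (23.5%) when sums were scaled by total UMIs alone. Skeletal muscle had 2 higher (19%) and 1 lower (9.47%) but 1 (11.3%) and 7 (27.8%) under that scaling. Glia/progenitor had 3 higher (20.7%) and 1 lower (15.8%) but 8 (40%) and 0 (7.59%). Beside these levels, the median mitochondrial share was 4.80% and 5.06% in neuron-gated cells, 4.90% and 4.92% in leukocyte-gated cells, and 3.25% and 3.29% in fibroblast-gated cells. The lowest shares of the tested types were in epidermis (2.19% and 2.25%) and chondrocyte (2.64% and 2.73%), whose summed levels lay below that of fibroblast. The part of the mitochondrial share in the differences of level was not tested.

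**Figure D1:**
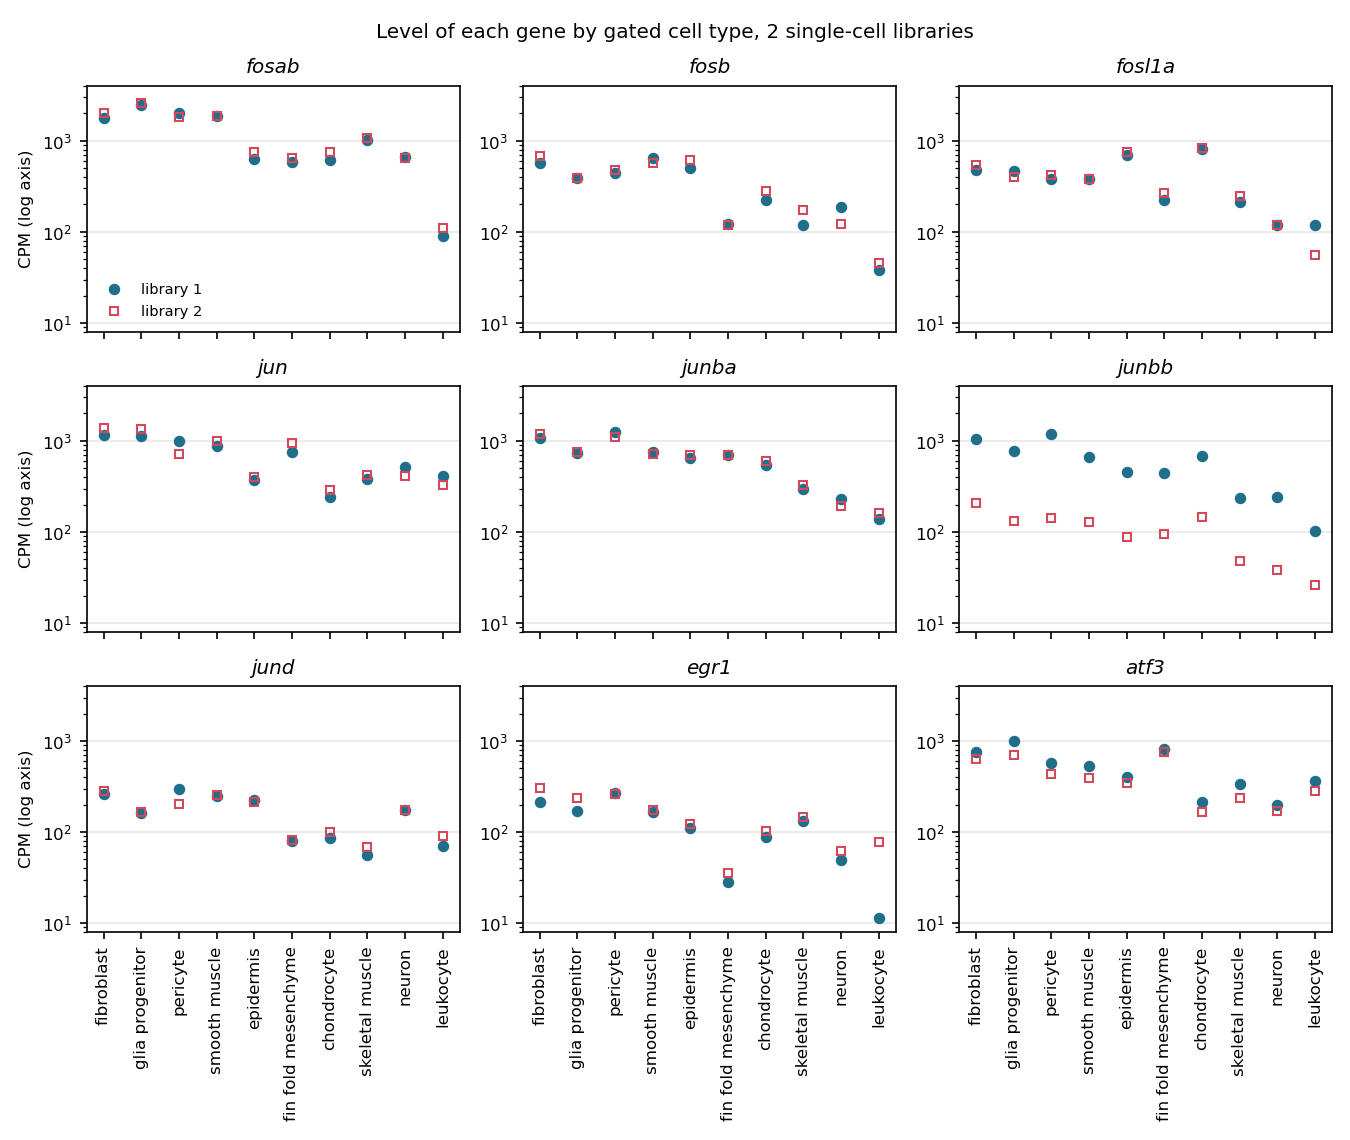
Level of each of the 9 genes in counts per 1000000 UMIs (CPM, log axis) in 10 gated cell types, 1 panel per gene. Filled circles are single-cell library 1 and open squares library 2; for the other 8 genes the libraries lie close together in most types, while junbb is higher in library 1 in every type.

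Of the Fos genes, fosab (LL0000010566), the zebrafish counterpart of mammalian FOS, was highest in glia/progenitor-gated cells at 2472 and 2578 CPM. Pericyte-gated cells had 2038 and 1808 CPM, fibroblast-gated cells 1776 and 2045 CPM and smooth-muscle-gated cells 1861 and 1875 CPM, and these 3 overlapped. Skeletal muscle stood alone at 1014 and 1084 CPM. A lower band held epidermis (631 and 753 CPM), chondrocyte (623 and 754 CPM), neuron (660 and 651 CPM) and fin fold mesenchyme (590 and 656 CPM), whose ranges overlapped. Leukocyte-gated cells had 90.2 and 110.5 CPM, so the highest mean was 25.2 times the lowest. The calls were higher in smooth muscle (log2 1.19 ± 0.08, adjusted p = 1.94e-09), fibroblast (1.096 ± 0.08, adjusted p = 9.318e-09), glia/progenitor (1.01 ± 0.08, adjusted p = 3.344e-08), skeletal muscle (0.94 ± 0.08, adjusted p = 4.048e-08) and pericyte (0.92 ± 0.08, adjusted p = 3.026e-07). With clusters in place of gates the glia/progenitor call was lost (log2 0.42). The calls were lower in leukocyte (-3.58 ± 0.13, adjusted p = 1.275e-13), neuron (-1.12 ± 0.10, adjusted p = 2.501e-08) and fin fold mesenchyme (-0.43 ± 0.09, adjusted p = 0.00179).

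The level of fosb (LL0000010567), which encodes a second Fos protein with a transactivating end, was 571 and 676 CPM in fibroblast, 640 and 572 CPM in smooth muscle and 504 and 608 CPM in epidermis. Those 3 ranges overlapped. Pericyte had 449 and 480 CPM, glia/progenitor 388 and 389 CPM, chondrocyte 222 and 282 CPM, and leukocyte 38.4 and 45.5 CPM. In the test it was higher in epidermis (log2 1.55 ± 0.12), where fosab was not called (-0.13 ± 0.09, adjusted p = 0.285). Fosl1a (LL0000010568) encodes Fra-1, a Fos protein that lacks a strong transactivating end, and it was ordered differently. It was highest in chondrocyte at 810 and 829 CPM and in epidermis at 705 and 747 CPM, above fibroblast at 473 and 546 CPM, with no overlap between these neighbours. Neuron (118 and 120 CPM) and leukocyte (120 and 56.3 CPM) were lowest. The test gave log2 2.05 ± 0.12 in chondrocyte (adjusted p = 2.799e-10) and 1.60 ± 0.13 in epidermis (adjusted p = 1.009e-08). In pericyte it gave 0.06 ± 0.15 (adjusted p = 0.978). The fibroblast calls of fosb (log2 1.33 ± 0.12) and fosl1a (0.63 ± 0.14) were lost with clusters in place of gates, at 0.30 and 0.36.

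Among the Jun genes, jun (LL0000013044), the classical partner of Fos, was highest in fibroblast at 1166 and 1373 CPM and in glia/progenitor at 1141 and 1335 CPM, which overlapped. Chondrocyte, the type highest in fosl1a, had the least jun at 242 and 290 CPM. The difference there was log2 -0.80 ± 0.14 (adjusted p = 0.000292), although it was not called when cells were grouped by clustering (log2 -0.17). Fin fold mesenchyme was higher in jun at 748 and 960 CPM (log2 0.69 ± 0.12, adjusted p = 0.000358). Junba (LL0000013045) and junbb are both counterparts of mammalian JUNB, a Jun protein that can oppose Jun at some targets. Junba was highest in pericyte at 1266 and 1095 CPM and in fibroblast at 1068 and 1196 CPM, then 736 and 759 CPM in glia/progenitor and 758 and 711 CPM in smooth muscle. Neuron had 232 and 191 CPM and leukocyte 140 and 162 CPM. In neuron the difference was log2 -2.10 ± 0.12 (adjusted p = 5.95e-11).

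Junbb (LL0000013046) had levels across the 10 types that went with those of junba at Pearson's r = 0.961 in library 1 and 0.949 in library 2, the highest of 36 pairs of these genes. This is a description over 10 types that share each library's cells. All 9 neighbouring pairs in the order of junbb overlapped, but these ranges span 2 libraries between which junbb differed 5.26-fold. The order of types was similar in the 2 libraries, at a Spearman rank correlation of 0.915. In library 1 junbb ran from 1180 CPM in pericyte to 102 CPM in leukocyte, and in library 2 from 208 CPM in fibroblast to 26.0 CPM in leukocyte. Jund (LL0000013047), a Jun protein that is more steadily expressed in mammals, spanned the narrowest range of these genes, with 262 and 282 CPM in fibroblast and 56.6 and 69.2 CPM in skeletal muscle, a ratio of means of 4.33. Its neuron level of 177 and 173 CPM was the fifth in the order of 10 types. It was higher in epidermis (log2 0.96 ± 0.13, adjusted p = 5.862e-06) and lower in fin fold mesenchyme (-0.76 ± 0.16, adjusted p = 0.00107) and skeletal muscle (-0.65 ± 0.16, adjusted p = 0.00404).

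The zinc-finger gene egr1 (LL0000009456) was at 265 and 260 CPM in pericyte and at 213 and 302 CPM in fibroblast, which overlapped. It was at 170 and 238 CPM in glia/progenitor and at 165 and 174 CPM in smooth muscle. Fin fold mesenchyme had 28.5 and 35.1 CPM, so the type that was high in atf3 and jun had the lowest mean egr1 (log2 -1.85 ± 0.30, adjusted p = 0.000103). In leukocyte it was at 11.3 and 78.0 CPM, a range that overlaps that of fin fold mesenchyme. The calls were higher in fibroblast (1.23 ± 0.21, adjusted p = 0.000191), pericyte (1.09 ± 0.23, adjusted p = 0.0025), skeletal muscle (1.07 ± 0.22, adjusted p = 0.00126) and smooth muscle (0.71 ± 0.22, adjusted p = 0.0241). The smooth muscle call was lost without the library block and with clusters, and the skeletal muscle call with scaling by total UMIs alone (log2 0.37).

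The stress-induced ATF gene atf3 (LL0000001523), which in mammals often acts as a repressor, was at 987 and 705 CPM in glia/progenitor and at 824 and 760 CPM in fin fold mesenchyme, with 759 and 633 CPM in fibroblast. Chondrocyte (215 and 165 CPM) and neuron (197 and 171 CPM) were lowest. The differences were log2 1.24 ± 0.10 in fin fold mesenchyme (adjusted p = 1.78e-08), 0.75 ± 0.10 in fibroblast (adjusted p = 1.67e-05), -0.69 ± 0.12 in chondrocyte (adjusted p = 0.00019, not called with clusters) and -1.88 ± 0.13 in neuron (adjusted p = 1.039e-09). In leukocyte the call (-0.44 ± 0.12, adjusted p = 0.00722) was lost with size factors of DESeq2 (-0.25) and without the library block. Several of the lowest correlations between genes involved atf3, whose 10 levels went with those of fosl1a at r = 0.208 and 0.206, of egr1 at 0.314 and 0.272 and of jund at 0.295 and 0.282. Yet atf3 went closely with jun, at r = 0.823 and 0.881, and with junba at 0.626 and 0.641. Of the 36 pairs of genes, 0 had a negative r in either library, and the smallest was that of fosl1a and jun (0.017 and 0.252).

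Within a type, cells differed widely. When every cell was thinned to 2000 UMIs, which left out 248 and 226 shallower cells, the median fibroblast-gated cell held 13 UMIs of the 9 genes in each library, with a 10th to 90th percentile range of 4 to 29 and 4 to 28. The median neuron-gated cell held 2 UMIs, from 0 to 13 and from 0 to 9. At least 5 of the genes were detected in 65.0% and 63.5% of fibroblast-gated cells, in 65.5% and 51.9% of pericyte-gated cells, in 11.8% and 6.71% of neuron-gated cells and in 4.08% and 5.17% of leukocyte-gated cells. None of the genes was detected in 1.68% and 0.677% of fibroblast-gated cells and in 23.6% and 27.3% of neuron-gated cells. The thinning left out 71 and 94 neuron-gated cells, the most of any tested type. In erythroid-gated cells none was detected in 58.3% and 74.1%, at median depths of 6117 and 12145 UMIs.

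**Figure D2:**
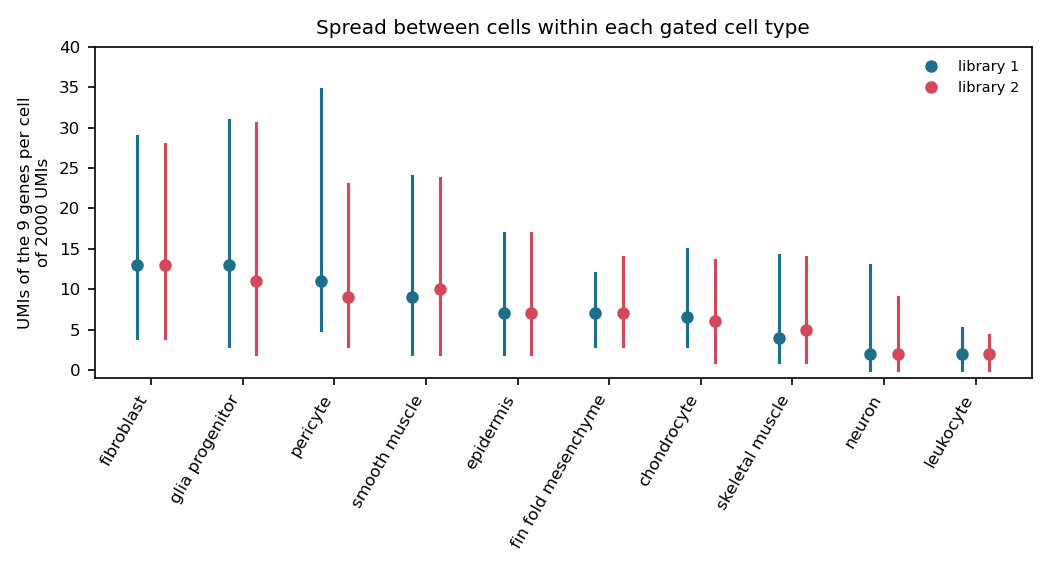
UMIs of the 9 genes per cell after each cell was thinned to 2000 UMIs, by gated cell type and single-cell library. Points are medians over cells and bars run from the 10th to the 90th percentile of cells; fibroblast-gated cells have a median of 13 in both libraries and neuron-gated cells a median of 2.

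In most combinations of type and library, cells in which fosab was detected also held the other genes more often. Over 15 combinations of type and library with at least 20 cells on each side, egr1 was seen in a median 26.1% of thinned cells with fosab and 7.53% of those without, and the share was higher with fosab in 15 of 15. Without thinning the medians were 49.9% and 12.8%. For jun the thinned medians were 62.4% and 36.5%, higher in 14 of 15, and the unthinned 89.1% and 61.1%. Among the genes, fosl1a was the exception in thinned cells, at 44.6% with fosab and 45.1% without, higher in 8 of 15. Unthinned, fosl1a was seen in 73.6% and 50%. Among the types, thinned fin fold mesenchyme of library 1 had lower shares with fosab for every gene but egr1. There jun was at 64.6% with fosab and 69.2% without, and atf3 at 65.8% and 69.2%. These shares describe cells of the same libraries and were given no test.

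Between the 2 single-cell libraries, which are replicates of a single group and were therefore compared without a test, junbb stood apart from the other 8 genes. It was at 672 CPM in library 1 (32136 UMIs) and 128 CPM in library 2 (8247 UMIs), 5.26-fold higher in library 1, with a log2 ratio of 2.39 and a 95% exact interval of 2.36 to 2.43 that covers counting error only. It was higher in library 1 in 10 of 10 types, by 3.90-fold to 8.28-fold. In pericyte-gated cells it was at 1180 and 143 CPM, and in neuron-gated cells at 244 and 38.6 CPM. The other 8 genes had ratios over all kept cells between 0.873 (egr1) and 1.22 (atf3). Of those, atf3 was higher in library 1 in 10 of 10 types, by 1.08-fold to 1.43-fold.

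Of 4153 genes at 20 CPM or more in either library, 1.18% differed at least 2-fold in either direction, 0.722% were at least 2-fold higher in library 1 and 0.241% at least 4-fold, and 6 genes had a larger ratio than junbb. Junbb was among 6 genes (0.144%) that were over 2-fold higher in library 1 in every tested type. The other 5, named after their values were seen, were RPL37A (3048 and 515 CPM), atp5mf (209 and 78.4 CPM), uqcrb (154 and 33.5 CPM), CABZ01102240.1 (29.0 and 5.45 CPM) and ndufb11 (27.8 and 5.27 CPM). Several bear names of ribosomal or respiratory-chain proteins, and none is an immediate-early gene by name. No gene was over 2-fold higher in library 2 in every type. Of the genes that neighbour junbb in the RefSeq gene order (assembly GRCz12tu, used for order only), most could not be compared. They had no entry in the counts, no UMIs or, for hook2, only 43 and 41 UMIs. Those with more did not share its ratio: trir was at 12.8 and 12.6 CPM, ubn2b at 10.3 and 10.1 CPM and znf1001 at 4.89 and 5.75 CPM. Because the test of types takes library as a block, the 5.26-fold ratio is absorbed there. Without the block, its calls in 6 types were lost, while the log2 differences stayed close. With and without the block they were 0.88 and 1.09 in pericyte, 0.59 and 0.57 in smooth muscle, and 1.231 and 1.203 in fibroblast. They were 1.25 and 1.18 in chondrocyte, -1.79 and -1.75 in neuron, and -2.35 and -2.44 in leukocyte.

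Summed over the 9 genes, library 1 had 5187 CPM and library 2 had 4788 CPM, and without junbb the sums were 4515 and 4660 CPM. The log2 ratio of the sums was 0.12 and turned to -0.045 without junbb, and with junbb kept it turned to -0.028 under a mitochondrial limit of 20%. Without junbb the sum was higher in library 1 in 4 of 10 types. In pericyte-gated cells the other 8 genes stood at 6262 and 5420 CPM, and in fibroblast-gated cells at 6289 and 7054 CPM.

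**Figure D3:**
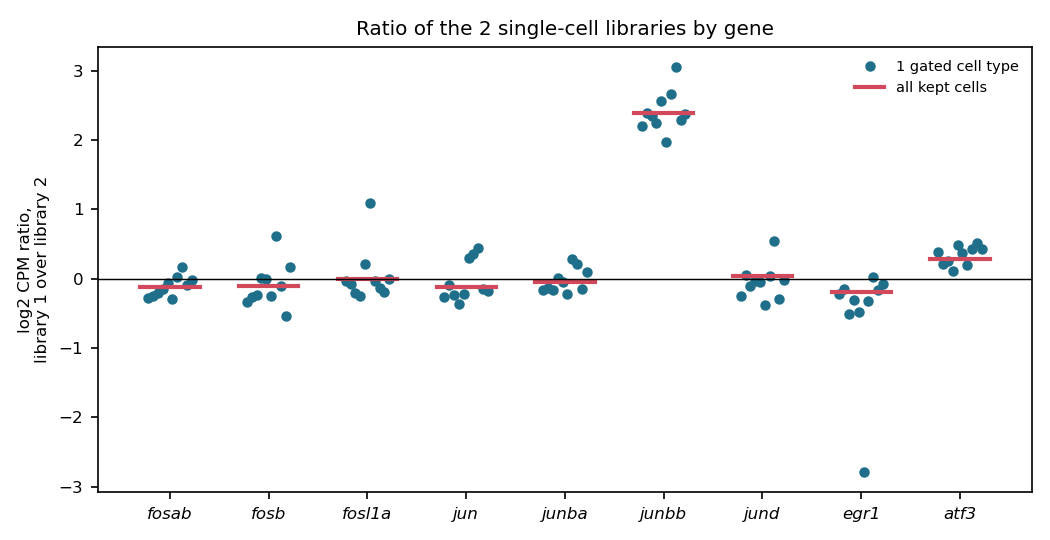
Ratio of the level in single-cell library 1 over library 2 (log2 of CPM) for each gene. Points are the 10 gated cell types and the line is the value over all kept cells; junbb lies at 2.39 with its types between 1.97 and 3.05, and the line of each other gene lies between -0.20 and 0.29.

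The genes whose level across the 10 types was most like the sum of the 9 were sought among 9129 other genes, by the smaller of the Pearson correlations in the 2 libraries. They were XLOC_044191 (smaller r = 0.957), klf9 (0.956), jdp2b (0.952), btg2 (0.941) and cdkn1a (0.925). Klf9 encodes a Krüppel-like factor, jdp2b a leucine zipper protein that dimerizes with Jun, btg2 an antiproliferative immediate-early protein and cdkn1a the cell-cycle inhibitor p21. XLOC_044191 carries no gene name in the files. Jdp2b was at 601 and 1129 CPM in fibroblast and at 27.1 and 75.8 CPM in leukocyte. Btg2 was at 697 and 739 CPM in fibroblast and at 42.9 and 82.3 CPM in leukocyte. These correlations describe 10 types that share cells and depth within a library.

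Of the other genes of the pathway, 10 further AP-1 and ATF genes gave 28 higher and 18 lower calls over 100 pairs of gene and type, beside 20.7% and 10.7% over all genes and types. The 12 other Egr, Nr4a and Klf genes gave 40 higher and 21 lower over 120, and 26 other immediate-early genes 111 higher and 75 lower over 260. The last shares, 42.7% and 28.8%, stood beside 42.2% and 28.9% for the 9 genes. Upstream kinases and serum response factor partners gave 24 higher and 17 lower over 120, shares of 20% and 14.2% that lie near those of all genes. Targets of AP-1 and serum response factor gave 32 and 32 over 110, and heat-shock genes 48 and 40 over 140. Summed heat-shock levels were 14165 and 15019 CPM in smooth muscle, 10642 and 11314 CPM in fibroblast, 8000 and 7876 CPM in neuron and 9797 and 9721 CPM in leukocyte. Epidermis had 13760 and 14138 CPM of them, and glia/progenitor 8358 and 9284 CPM. Heat-shock genes and the 9 genes thus ordered the types differently.

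In the bulk um148 libraries, all 9 genes were lowest in library 2. The deposited values are a signal normalized by the authors, and each lies within 0.01 of a whole multiple of 1 step per library, as scaled read counts would. They are not given per length, so levels of different genes are not compared. The 3 columns sum to 16997792, 19409286 and 21231786. Fosab was at 95240, 35816 and 119839 units of this normalized signal in libraries 1, 2 and 3 (mean 83632 ± 43197, SD, n = 3). Fosl1a was at 13882, 1506 and 19448 (11612 ± 9184), and fosb at 20998, 3097 and 25135 (16410 ± 11713). Library 2 was thus 3.003-fold below the mean of the others for fosab, 11.1-fold for fosl1a and 7.45-fold for fosb.

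The Jun genes had the same low library. Jun was at 29398, 5663 and 27061 units (20708 ± 13081), and junba at 28665, 4608 and 21742 (18338 ± 12385). Junbb was at 56414, 9684 and 30294 (32131 ± 23419). Jund was at 7365, 3252 and 5976 (5531 ± 2092), the least variable of the 4. Egr1 was at 61669, 28512 and 42890 (44357 ± 16627), and atf3 at 6082, 1253 and 6522 (4619 ± 2923). For egr1 library 2 was 1.83-fold below the mean of the others, the smallest gap of the 9.

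Of all genes in the table, 30.8% were lowest in library 2. A gap of at least 2-fold below both other libraries was seen for 7 of the 9 genes and for 3.97% of all genes, and a gap of at least 4-fold for 5 and for 0.861%. The 9 genes made up 1.88% of the normalized signal of library 1, 0.481% of library 2 and 1.41% of library 3. Their median SD on the log2(value + 1) scale was 1.34, beside 0.37 over all genes and 0.29 over genes at or above the median level, and without library 2 it was 0.23. With 3 libraries of a single group there is no test of this. Among 26 other immediate-early genes in the table, 24 were also lowest in library 2, and among 14 heat-shock genes 8 were. Of 9 further AP-1 and ATF genes, 4 were lowest in library 2 and 5 in library 3. Library 2 was lowest for 8 of 11 other Egr, Nr4a and Klf genes and 5 of 9 targets of AP-1 or serum response factor. For upstream kinases and serum response factor partners it was lowest in 3 of 13.

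**Figure D4:**
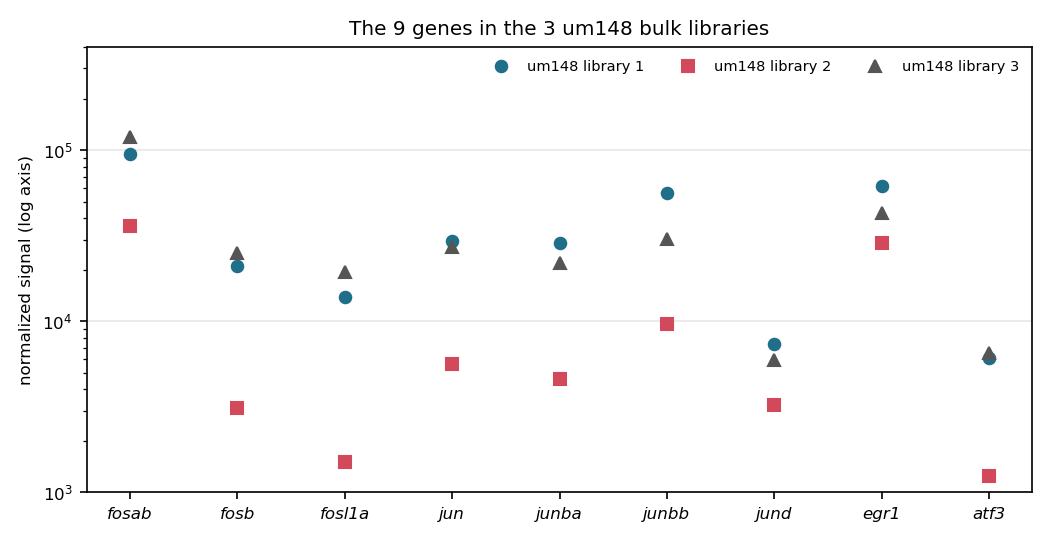
Deposited normalized signal of the 9 genes in the 3 bulk um148 libraries on a log axis, 1 symbol per library. Library 2 is the lowest for every gene, by 1.83-fold (egr1) to 11.1-fold (fosl1a) below the mean of libraries 1 and 3.

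In bulk samples fewer cells of a type and less RNA per cell cannot be told apart. Marker sums of cell types also differed between the libraries. The 7 chondrocyte markers, all listed, summed to 499059, 900849 and 850095 units of normalized signal in libraries 1, 2 and 3. The 7 epidermis markers, all listed, summed to 58287, 31461 and 39810, and 6 of the 7 skeletal muscle markers to 8715, 15247 and 2577. Of the 7 leukocyte markers 2 were listed, at sums of 447.9, 77.9 and 144.6. The 7 pericyte markers summed to 21557, 25413 and 35548, the 7 fibroblast markers to 36836, 30547 and 40520, and the 14 heat-shock genes to 384515, 414916 and 1185520. Sums of the 7 smooth muscle markers were 10272, 10610 and 13126, and of the 7 glia/progenitor markers 1786, 3008 and 2909. The part of cell composition in the low values of library 2 was not tested.

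The authors' deposited table also compares um148 with wild-type cells, whose libraries are not among these samples. The direction of its fold changes was read from the values, since um148 over wild-type implies a wild-type total of 20284258, near the mean um148 total of 19212955, and the other direction implies 91949403. By the adjusted p of the authors' deposited table, 2 of the 9 genes were lower in um148 and 0 were higher, against 5.13% and 6.18% of 16853 genes with an adjusted p. At an unadjusted p under 0.05 the authors' deposited table has 4 lower and 0 higher, against 11.2% and 12.9% of its 17540 genes, and no other tool was run because the wild-type columns were not used here. Atf3 had a log2 fold change of -2.11 (adjusted p = 0.000642) in the authors' deposited table, and jund one of -1.31 (adjusted p = 0.00305).

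The other Fos and Jun genes were not called in the authors' deposited table. There fosab had a log2 fold change of -0.73 (adjusted p = 0.235), fosb -1.34 (adjusted p = 0.0805) and fosl1a -1.39 (adjusted p = 0.356). Jun had -0.61 (adjusted p = 0.448), junba -1.31 (adjusted p = 0.0646) and junbb -0.19 (adjusted p = 0.841) in the authors' deposited table. Egr1 alone had a positive value there, 0.43 (adjusted p = 0.416). By sign, 8 of 9 were lower in the authors' deposited table, beside 48.6% of all its genes, and the median log2 fold change was -1.31 beside 0.02.

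The low um148 library 2 entered each of these values. Taken against the wild-type mean that the authors' fold change implies, the um148 libraries without library 2 gave log2 -1.66 for atf3, -1.04 for jund, -0.85 for fosb, -0.87 for fosl1a and -0.85 for junba. They gave -0.36 for fosab, -0.16 for jun, 0.24 for junbb and 0.67 for egr1. Junbb changed sign without library 2, and without library 1 it was -0.88. These are values with no test, since the wild-type spread is not used here.

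**Figure D5:**
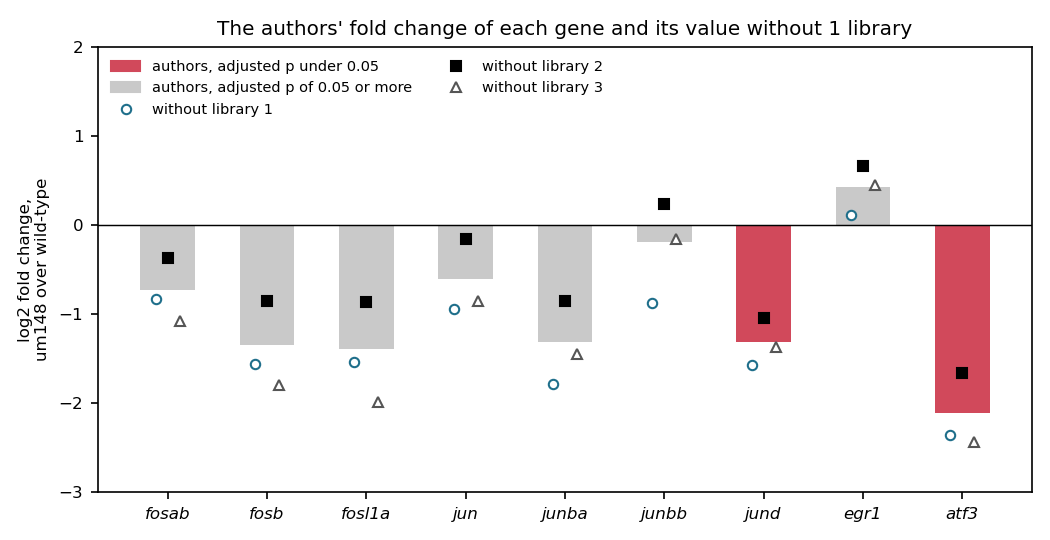
Log2 fold change of each gene, um148 over wild-type, in the authors' deposited table (bars, red at adjusted p under 0.05), with the value recomputed without 1 um148 library (symbols). Atf3 and jund are the bars past the threshold, and junbb moves from -0.19 to 0.24 without library 2.

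Other genes of the pathway were set beside these, again at adjusted p under 0.05 in the authors' deposited table. Of all genes there with an adjusted p, 5.13% were lower and 6.18% higher. The um148 library 2, where 24 of the 26 other immediate-early genes were lowest, entered these values as well. Of 9 further AP-1 and ATF genes in the authors' deposited table, 1 was higher (mafk, a small Maf, log2 3.87) and 3 were lower: fosl2 (-2.08), which encodes Fra-2, atf4b (-1.83) and the small Maf gene maff (-1.45). The wild-type mean implied for mafk was low, at 29.7 units of normalized signal, beside a median um148 level of 235 over all genes. Of 11 Egr, Nr4a and Klf genes there, klf9 was higher (1.44), and the orphan nuclear receptor genes nr4a1 (-1.79) and nr4a3 (-1.46) were lower. Of 26 other immediate-early genes in the authors' deposited table, 1 was higher, the clock gene per1a (1.93), and 10 were lower, led by gadd45bb (-2.68), a stress-response gene, dusp5 (-2.52), a MAP kinase phosphatase gene, and nfkbiaa (-2.23), which encodes an inhibitor of NF-κB. Of 9 targets of AP-1 or serum response factor, 5 were lower in the authors' deposited table, among them the cytokine gene il11a (-3.46) and the growth factor gene hbegfb (-2.32). The level of hbegfb was low, at 15.1, 26.0 and 38.6 units in um148 libraries 1, 2 and 3 and an implied wild-type mean of 132. Upstream, 2 of 13 were higher in the authors' deposited table, the serum response factor partners elk1 (1.30) and elk4 (0.94), and 0 were lower. Of 14 heat-shock genes in the authors' deposited table, hspe1 was lower (-1.34).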

How the data were processed

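The single-cell files hold UMI counts per gene and barcode, which the authors made with Cell Ranger 3.1.0 per the file headers and the submitters' processing notes. The notes also list GRCz11, CASAVA 1.8.2, STAR, RSEM and DESeq2 with no role. The bulk table holds a signal normalized by the authors. Every value of a library lies within 0.01 of a whole multiple of 1 step (100% of values). If a step is 1 read, the libraries hold 16848358, 19440480 and 21437870 reads in these genes; no count test was run on them. The other columns, as deposited by the authors, give the fold (linear ratio) and log2 fold of um148 over wild-type, a score (the test statistic), and the p-value before and after adjustment, the latter also as −log10. The 3 wild-type columns were not used.

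Barcodes with at least 500 genes and at most 10% of UMIs in 13 mitochondrial genes were kept. Of these, the barcodes with the highest Scrublet doublet scores (scanpy 1.11.5) were removed, 282 and 493. Their number was preset, at a rate of 0.8% per 1000 barcodes of a library, and not called from the scores. Cells were gated with 16 marker lists. Sums per library and type were tested with edgeR 4.0.16 (quasi-likelihood, TMM, R 4.3.3). The block is the library, because all types of a library come from the same sorted suspension. Errors beside log2 differences are standard errors. Levels across types are CPM of summed UMIs. Intervals are exact at 95% and cover counting error only. The genes named from other lists are those called in the authors' table, at most 3 per direction by size (1 of them is not reported here), and those most like the 9 genes are the 5 with the highest correlation of log2(CPM + 10). The 9 genes and all lists were chosen with earlier results of these data known. Sequences and coordinates are not used here.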

Additional observations from a re-analysis of the deposited data

Results flagged for a closer look

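Barcodes that the mitochondrial limit removed entered no comparison, and they held transcripts of the 9 genes. In single-cell library 1, 3976 such barcodes held 43302 UMIs of these genes, or 2936 CPM. In library 2, 407 such barcodes held 5635 UMIs, or 2928 CPM. Both levels lay below those of the kept cells, 5187 and 4788 CPM. Of the removed barcodes of library 1, 3898 had between 10% and 20% mitochondrial UMIs. In them junbb again differed between libraries, at 409 CPM over all removed barcodes of library 1 and 54.6 CPM over those of library 2. Other genes differed there as well. Among those lower in library 1 were fosb (168 and 389 CPM), egr1 (75.0 and 184 CPM) and fosl1a (234 and 355 CPM). Jun (577 and 380 CPM) and junba (510 and 333 CPM) were higher in it. The near-equal sums thus hold opposite differences of single genes.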

How the results depend on the processing

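The counts of 38 higher and 26 lower pairs stayed within 1.5 times under every alternative run, at 33 to 42 higher and 23 to 34 lower. Without the library block they were 33 and 23, and 8 of the 64 called pairs were lost, 6 of them of junbb, the others egr1 in smooth muscle and atf3 in leukocyte; the single-cell libraries pair the types because each is 1 suspension. Scaling by total UMIs alone, chosen after seeing the data, moved the median of all genes from 0.10 to 0.70 in neuron, from 0.005 to 0.63 in glia/progenitor and from -0.10 to -0.77 in skeletal muscle, and turned fosb in chondrocyte to log2 -0.021 and jund in glia/progenitor to 0.19. With clusters in place of gates 6 of the 42 called pairs that could be compared were lost. Pericyte, fin fold mesenchyme and leukocyte had no cluster in that test, so none of their called pairs was checked in this way. Osteoblast (5 higher, 1 lower) and erythroid (0 higher, 9 lower) entered instead, which made 81 pairs and not 90. The cluster totals of 35 higher and 25 lower thus partly count other types and are no check of the 38 and 26. With 1 library alone no residual degrees of freedom remain, so only signs were compared, from CPM per total UMIs. They held for 37 and 38 of 38 higher and 25 and 25 of 26 lower pairs. The pairs were called from these same libraries, so the agreement is no separate check of the calls.

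The log2 ratio of the summed level between the single-cell libraries, 0.12, became -0.028 with a mitochondrial limit of 20%, 0.13 with one of 5%, 0.10 with at least 1000 genes, 0.14 with equal weight per type and -0.045 without junbb, so its sign is not settled. The authors' calls rose from 2 to 4 at an unadjusted p under 0.05. The median SD over the um148 libraries, 1.34, ranged from 0.23 to 1.68 with 1 library left out. The cause of these shifts was not tested. Depth per cell was lowest in the neuron gate, at medians of 3027 and 3151 UMIs, and the leukocyte gate held the fewest UMIs of the 9 genes, 596 and 546.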
